A study of Homo sapiens with 4 samples.

Results

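Aminoacyl-tRNA synthetases are the enzymes that join each amino acid to its transfer RNA. They were followed here at the level of mRNA and of ribosome footprints in SW480 cells, a human colorectal adenocarcinoma line. The members were 39 gene symbols named for these enzymes and their scaffold proteins, matched exactly to the gene column of the count tables. The match used names and no measured values, but the list was chosen with earlier results of these data known. Of the 39, 38 were found among 19192 genes in all 4 libraries: 19 cytosolic enzymes, 3 scaffold proteins and 16 mitochondrial enzymes, while QARS was not analysed here. The mitochondrial symbols end in 2, with AIMP2 as the exception, since it is a cytosolic scaffold. GARS and KARS each encode both the cytosolic and the mitochondrial enzyme, and were kept with the cytosolic ones.

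Both lines carried LIN28B overexpression, a gain of an RNA-binding protein that blocks maturation of let-7 microRNAs. The knockout-labelled line had, per its genotype label, LIN28B OE together with IMP1-/- knockout, and the OE-labelled line had LIN28B OE alone. IMP1 is the protein of the gene IGF2BP1, which binds mRNAs in the cytoplasm. The series' title names a post-transcriptional regulon of LIN28B and IMP1 in the intestine, and the pair of genotypes compares cells labelled as lacking IMP1 with cells labelled as keeping it. Each line gave 1 footprint library and 1 matched library of randomly fragmented RNA, each from 3 pooled culture plates. The labels do not say whether a line is a single clone, and 1 OE-labelled RNA library has SW840 in its cell line field and SW480 in its source field.

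With 1 library per line and assay there is no replicate check, so no test of a difference between lines was made. Total counts were 6813372 for RNA and 3260262 for footprints in the knockout-labelled line, against 5429224 for RNA and 2732760 for footprints in the OE-labelled line. IGF2BP1 itself went against its label: it had 1974 RNA counts and 821 footprint counts in the knockout-labelled libraries, against 840 and 332 in the OE-labelled ones. LIN28B had 303 RNA and 46 footprint counts in the knockout-labelled libraries, against 1205 and 190 in the OE-labelled ones, although both lines are labelled as overexpressing it. Counts of the mRNA do not show whether IMP1 protein was present, and every direction below is one between labelled libraries. Markers of simple epithelium, the tissue of origin of the line, summed to 5197 CPM of RNA (counts scaled to the same library total) in the knockout-labelled library and 10687 in the OE-labelled one, with KRT20 and CDX1 at 0 in all 4 libraries. KRT8 and KRT18 made up most of these sums, and CDH1 went the other way, with 86.5 CPM of RNA in the knockout-labelled library and 46.6 in the OE-labelled one. Haematopoietic markers summed to 23.7 CPM in the knockout-labelled RNA library and 13.0 CPM in the OE-labelled one. The part of these differences in the results was not tested. As in any bulk library, fewer cells with an mRNA and less of it per cell cannot be told apart.

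Each synthetase activates its amino acid with ATP and transfers it to the matching tRNA, and the accuracy of translation depends on that pairing. In the cytosol several of the enzymes sit in a multisynthetase complex held together by the scaffolds AIMP1, AIMP2 and EEF1E1 (also called AIMP3). Mitochondria translate their own small genome with a separate set of enzymes, all encoded in the nucleus and imported. When uncharged tRNA accumulates, the kinase GCN2 raises translation of the transcription factor ATF4, and many cytosolic synthetase genes are described as ATF4-responsive.

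ATF4 dimers with C/EBP proteins bind sequences of the form TGATGNAA, so the promoters of the members were searched for these letters on both strands (TTNCATCA on the opposite one). The windows were RefSeq promoters of build GRCh38.p14, from 250 bases before to 50 bases after each start. Of the 19 cytosolic enzymes, 15 had a window, and 7 of these 15 (46.7%) held a match. By comparison, 1270 of all 35116 windows of this length (3.62%) held one, or 1217 of 27305 genes (4.46%). All 7 belonged to the 10 enzymes with a window that are described as ATF4-responsive, and none to the 5 other cytosolic enzymes with one. Whether those descriptions rest in part on the same letters was not checked. Among genes of uncharged tRNA sensing and ATF4 targets, 6 of 21 with a window (28.6%) held a match. The same letters were in 0 of 3 scaffold promoters and in 1 of 14 mitochondrial ones, that of YARS2. DARS, LARS, VARS, YARS, AARS2 and VARS2 had no window. The 7 cytosolic stretches and that of YARS2 are shown because they carry the matches counted above; each reads 5′ to 3′ on the gene's strand, and the capitals mark the match:

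AARS: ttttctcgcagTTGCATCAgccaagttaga
CARS: cggggcggcggTTGCATCAgattctaggaa
GARS: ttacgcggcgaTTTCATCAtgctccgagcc
IARS: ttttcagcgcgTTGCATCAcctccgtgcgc
MARS: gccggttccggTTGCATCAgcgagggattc
NARS: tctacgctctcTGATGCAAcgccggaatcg
TARS: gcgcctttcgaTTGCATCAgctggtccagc
YARS2: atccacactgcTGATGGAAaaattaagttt

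The stretches lie at chr16:70289675-70289704 on the minus strand for AARS, chr11:3057407-3057436 on the minus strand for CARS and chr7:30594834-30594863 on the plus strand for GARS. Those of IARS and MARS are chr9:92293692-92293721 on the minus strand and chr12:57488053-57488082 on the plus strand. Those of NARS and TARS are chr18:57621804-57621833 on the minus strand and chr5:33440956-33440985 on the plus strand, and that of YARS2 is chr12:32756076-32756105 on the minus strand. In 5 of the 7 cytosolic promoters the letters were TTGCATCA; NARS held the reverse complement of that octamer, and GARS held TTTCATCA. Counted from the start site, the first base of the match lay at -2 in CARS, -4 in MARS, -13 in IARS and -33 in GARS, at 3 in TARS and 15 in NARS, and at -187 in AARS. A match is a string of letters and was not tested as a binding site in these cells.

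The cytosolic enzymes were abundant and the mitochondrial ones scarce. Per kilobase of coding sequence, the median footprint level of the cytosolic enzymes was 192 CPM per kb in the knockout-labelled library and 179 CPM per kb in the OE-labelled one. The mitochondrial enzymes had a median of 18.0 CPM per kb in the knockout-labelled library and 21.6 in the OE-labelled one, so the cytosolic median was 10.7 times the mitochondrial one in the knockout-labelled library and 8.29 times in the OE-labelled one. For RNA per kilobase of transcript the factor was 6.00 in the knockout-labelled library and 5.64 in the OE-labelled one. All 38 members together took 1.13% of footprint counts in both lines, and 0.68% of RNA counts in the knockout-labelled line against 0.58% in the OE-labelled one.

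WARS, the tryptophan enzyme, had the highest cytosolic footprint level in the knockout-labelled library, at 697 CPM per kb against 482 CPM per kb in the OE-labelled one. SARS, for serine, had 664 (knockout-labelled) and 620 CPM per kb (OE-labelled), and GARS, for glycine, had 563 CPM per kb in the knockout-labelled library and 659 in the OE-labelled one. The order at the top thus differed between lines: WARS led in the knockout-labelled one and GARS in the OE-labelled one. VARS, for valine, was lowest with 61.1 (knockout-labelled) and 56.2 CPM per kb (OE-labelled), next to EPRS, the fused glutamate and proline enzyme, with 77.0 (knockout-labelled) and 76.1 CPM per kb (OE-labelled). Among the mitochondrial enzymes YARS2 (72.8 knockout-labelled, 63.9 OE-labelled), NARS2 (59.4 knockout-labelled, 56.7 OE-labelled) and IARS2 (56.0 knockout-labelled, 66.2 OE-labelled, all in CPM per kb) were highest, and YARS2 lay above VARS in both libraries. PARS2, for proline, had 5.98 CPM per kb in the knockout-labelled library and 11.1 in the OE-labelled one, and AARS2, for alanine, had 8.14 (knockout-labelled) and 4.24 (OE-labelled). VARS2's transcript was not matched in the annotation used for lengths, and it has no value per kb.

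**Figure D1:**
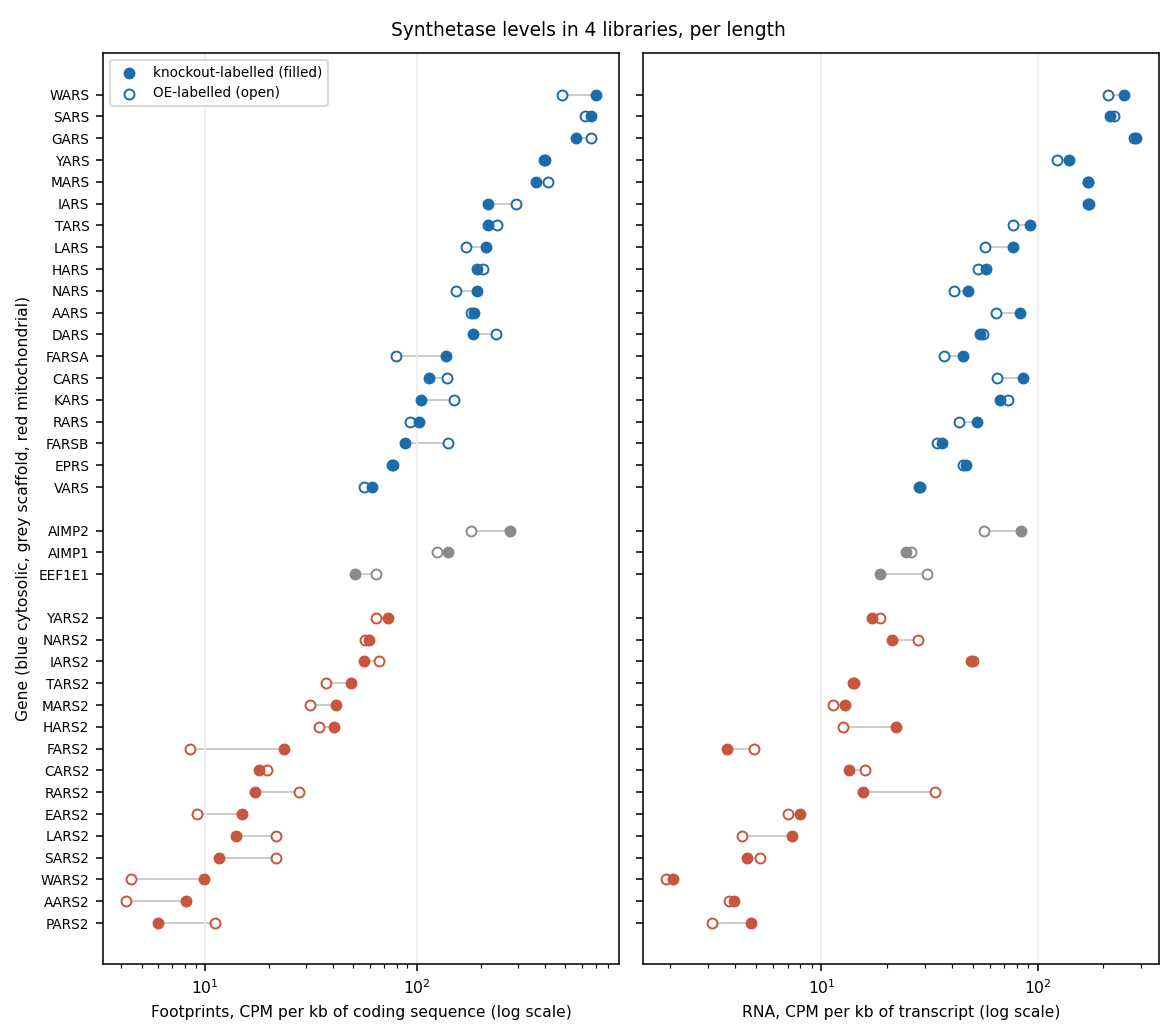
Footprint and RNA levels of each synthetase and scaffold gene per kilobase in each line, on a log axis in CPM per kb. Each point is 1 gene in 1 library, filled for the knockout-labelled library and open for the OE-labelled one. Footprints are in the left panel and RNA in the right one. For footprints the cytosolic median is 10.7 times the mitochondrial one in the knockout-labelled library and 8.29 times in the OE-labelled one.

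Ratios between lines were then taken on counts scaled within each assay, as log2 of knockout-labelled over OE-labelled. Each has a 95% interval for counting error only. A gene counted as measured with a mean of at least 50 counts over the pair of libraries, and a difference of at least 1.5-fold (0.585 on the log2 scale) is called past 1.5-fold. By this minimum 36 members were measured for mRNA (all but FARS2 and WARS2), 35 for footprints (all but PARS2, VARS2 and WARS2) and 34 for both.

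At the mRNA level the cytosolic enzymes lay close together and slightly above equality. None of the 19 was past 1.5-fold, in a table where 21.0% of 9855 measured genes were, or 11.9% of genes with at least 400 counts. Their ratios ranged from -0.11 for KARS, the lysine enzyme, to 0.43 for LARS, the leucine enzyme, with a median of 0.12 beside 0.01 for all measured genes. Of the 19, 16 were above 0 and 3 below, while 51.1% of all measured genes were above 0; the signs of DARS, KARS, MARS, SARS and VARS changed between scalings. The counting interval lay wholly above 0 for 9 of them and wholly below for none; it left out 0 for 55.7% of all measured genes. Their SD of 0.16 compares with 0.42 for all measured genes of at least 400 counts.

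LARS had 2603 RNA counts in the knockout-labelled library against 1423 in the OE-labelled one, a log2 ratio of 0.43 (95% interval 0.33 to 0.52). CARS, for cysteine, had 1676 knockout-labelled and 930 OE-labelled RNA counts, a ratio of 0.40 (0.29 to 0.52), and AARS, for alanine, had 2033 knockout-labelled and 1157 OE-labelled ones, a ratio of 0.37 (0.26 to 0.47). These 3 had the highest cytosolic mRNA ratios, each short of 1.5-fold, and LARS came nearest to it with total counts as scaling (0.54). At the other end KARS had 1153 RNA counts in the knockout-labelled library and 916 in the OE-labelled one, with an interval from -0.24 to 0.01. The most abundant mRNAs hardly differed: IARS, for isoleucine, had 5713 knockout-labelled and 4128 OE-labelled RNA counts (0.02), and GARS had 5306 knockout-labelled and 3817 OE-labelled ones (0.03).

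Footprints on the cytosolic enzymes spread more widely than their mRNAs, and in both directions. FARSA alone was past 1.5-fold higher and FARSB alone past 1.5-fold lower, 2 of 19 in a table where 29.0% of 7323 measured genes were past it, or 17.0% of those with at least 400 counts. The median was -0.02 beside 0.02 for all measured genes, with 9 enzymes above 0 and 10 below, and the sign of this median changed between scalings. WARS came next after FARSA: its footprints numbered 3235 in the knockout-labelled library against 1846 in the OE-labelled one, a log2 ratio of 0.53 (0.45 to 0.62). KARS had 645 knockout-labelled and 759 OE-labelled footprint counts (-0.51, -0.66 to -0.36), IARS had 2697 knockout-labelled and 2992 OE-labelled ones (-0.43, -0.50 to -0.35), and DARS, for aspartate, had 901 knockout-labelled and 962 OE-labelled ones (-0.37). AIMP2 at 0.61 and WARS at 0.53 were the members just inside and just outside the 1.5-fold threshold for footprints.

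The other cytosolic enzymes lay between these ends, all under 1.5-fold in both assays. NARS, for asparagine, was higher in both: it had 1047 knockout-labelled and 661 OE-labelled RNA counts (0.22), and 1037 knockout-labelled and 683 OE-labelled footprint counts (0.33). RARS, for arginine, had 797 knockout-labelled and 485 OE-labelled RNA counts (0.27), and 665 knockout-labelled and 497 OE-labelled footprint counts (0.14). TARS, for threonine, had 1649 knockout-labelled and 1017 OE-labelled RNA counts (0.25), but 1536 knockout-labelled and 1396 OE-labelled footprint counts (-0.14). TARS thus lay above 0 for mRNA and below it for footprints, as CARS did. The tyrosine enzyme YARS had 3220 knockout-labelled and 2073 OE-labelled RNA counts (0.19), and 2059 knockout-labelled and 1721 OE-labelled footprint counts (-0.02). MARS, for methionine and so for initiation as well, had 3532 knockout-labelled and 2577 OE-labelled RNA counts (0.01), and 3230 knockout-labelled and 3044 OE-labelled footprint counts (-0.19). Near 0 in both assays were EPRS (0.04 for mRNA, 0.02 for footprints), VARS (0.02 and 0.12), SARS (-0.05 and 0.10) and HARS (0.12 and -0.09).

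FARSA (alpha) and FARSB (beta) are the subunits of cytosolic phenylalanyl-tRNA synthetase, a tetramer with equal numbers of each, and they differed in opposite directions. FARSA had 685 footprint counts in the knockout-labelled library and 330 in the OE-labelled one, a log2 ratio of 0.78 (0.59 to 0.97). FARSB had 511 in the knockout-labelled library and 673 in the OE-labelled one, a ratio of -0.67 (-0.84 to -0.51). In the knockout-labelled library FARSA therefore had more footprints than FARSB, and in the OE-labelled library fewer.

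Per kilobase of coding sequence FARSA had 137 CPM (127 to 147) in the knockout-labelled library and 79.8 CPM (71.5 to 88.9) in the OE-labelled one. FARSB had 88.0 CPM (80.6 to 96.0) per kb in the knockout-labelled library and 140 CPM (130 to 151) in the OE-labelled one. The FARSA to FARSB footprint ratio per length was 1.55 in the knockout-labelled line and 0.57 in the OE-labelled line, a 2.73-fold difference (2.29 to 3.25). Because both genes are read within each library, this value does not depend on the scaling between libraries. Their mRNAs differed little: FARSA had 580 knockout-labelled and 348 OE-labelled RNA counts and FARSB had 860 knockout-labelled and 600 OE-labelled ones, with a ratio of ratios of 1.16 (0.98 to 1.38). FARSA is transcribed from the minus strand of chromosome 19 (12922480 to 12933715, GRCh38) and FARSB from the minus strand of chromosome 2 (222570536 to 222656337). Of the 28-base words in FARSB's coding sequence 3.05% also occur in another annotated gene.

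**Figure D2:**
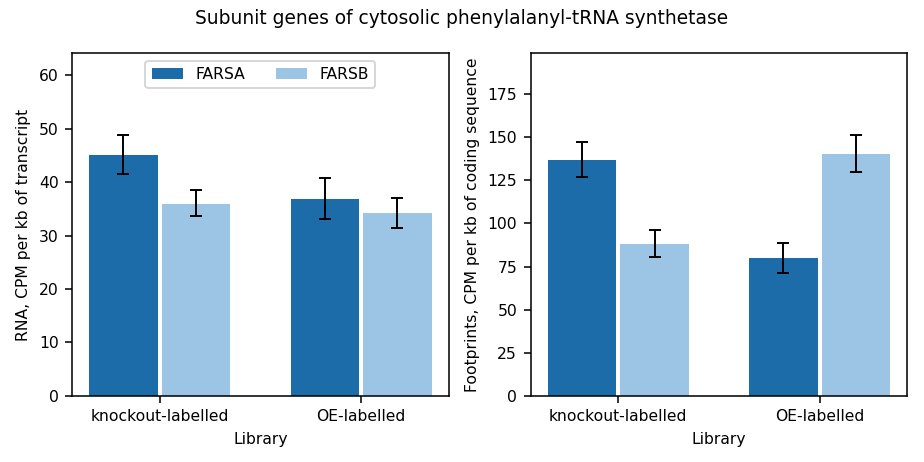
FARSA and FARSB levels in CPM per kb (coding length for footprints, transcript length for RNA), knockout-labelled bars left of OE-labelled ones, with exact Poisson 95% intervals that cover counting error only. For footprints the order of the subunits is opposite in the 2 lines (137 and 88.0 CPM per kb in the knockout-labelled line, 79.8 and 140 in the OE-labelled line), and for RNA FARSA is the higher in both, with overlapping intervals in the OE-labelled line.

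The 3 scaffold proteins did not move together. AIMP2, which holds the complex together at its centre, had 730 RNA counts in the knockout-labelled library against 361 in the OE-labelled one (0.57, 0.39 to 0.76). Its footprints were past 1.5-fold higher, 866 (knockout-labelled) against 467 (OE-labelled) (0.61, 0.45 to 0.78). AIMP1, which carries a tRNA-binding domain and is also secreted as a cytokine, had 441 knockout-labelled and 341 OE-labelled RNA counts (-0.07) and 428 knockout-labelled and 316 OE-labelled footprint counts (0.16).

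EEF1E1 was the 1 scaffold with a lower mRNA ratio past 1.5-fold, with 143 RNA counts in the knockout-labelled library and 173 in the OE-labelled one (-0.72, -1.05 to -0.39). Its footprints, 87 (knockout-labelled) and 91 (OE-labelled), gave -0.34 (-0.78 to 0.10). The AIMP2 to EEF1E1 ratio of RNA counts was 5.10 in the knockout-labelled line and 2.09 in the OE-labelled line. For EEF1E1, 82.6% of the 28-base words of its coding sequence also occur in another annotated gene, mainly its read-through transcript with BLOC1S5, so its counts depend on how shared reads were assigned.

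The mitochondrial enzymes ranged more widely. For mRNA 3 of 14 measured were past 1.5-fold higher, HARS2, LARS2 and PARS2, and 1, RARS2, was past it lower; 25.6% of all measured genes under 400 counts were past it in either direction. The median was 0.05, with 8 above 0 and 6 below, and the SD was 0.50 against 0.16 for the cytosolic enzymes. Their counts are lower, and the median width of a counting interval was 0.59 on the log2 scale, against 0.23 for the cytosolic enzymes; the SD of all measured genes under 400 counts was 0.60.

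RARS2, the arginine enzyme, was lowest: it had 200 RNA counts in the knockout-labelled library against 319 in the OE-labelled one, a log2 ratio of -1.12 (-1.38 to -0.86). Its footprints were 98 (knockout-labelled) and 130 (OE-labelled), a ratio of -0.68 (-1.08 to -0.29). It was therefore past 1.5-fold lower in both assays, the only measured member for which this held. RARS2 lies on the minus strand of chromosome 6 (87514378 to 87590003).

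HARS2, for histidine, had 394 RNA counts in the knockout-labelled library and 164 in the OE-labelled one (0.82, 0.55 to 1.09), and 202 knockout-labelled and 142 OE-labelled footprint counts (0.23, -0.08 to 0.55). HARS2 stands on the plus strand of chromosome 5 (140691426 to 140699318), head to head with HARS, and the listed transcripts of the pair overlap by 437 bases. Whether counting used strand is not given in the sources used here, and over that stretch reads of the pair may not be separable; their coding sequences share no 28-base word. HARS itself, with 1001 knockout-labelled and 676 OE-labelled RNA counts, had a ratio of 0.12.

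LARS2, for leucine, differed in opposite directions in the 2 assays. It had 245 RNA counts in the knockout-labelled library and 106 in the OE-labelled one (0.76, 0.43 to 1.11). It had 124 footprint counts in the knockout-labelled library and 159 in the OE-labelled one (-0.63, -0.99 to -0.29). LARS2 lies on the plus strand of chromosome 3 (45388561 to 45549421). PARS2 had 79 knockout-labelled and 38 OE-labelled RNA counts (0.60, 0.04 to 1.21) and was the member just inside the threshold for mRNA, with AIMP2 at 0.57 just outside; its footprints, 28 (knockout-labelled) and 43 (OE-labelled), fell under the count minimum.

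For footprints 3 of 13 measured mitochondrial enzymes were past 1.5-fold higher and 3 past it lower, against 32.0% of all measured genes under 400 counts in either direction. FARS2, the phenylalanine enzyme, had 104 footprint counts in the knockout-labelled library and 31 in the OE-labelled one (1.45, 0.88 to 2.10), the largest footprint ratio of any measured member. Its RNA counts, 44 (knockout-labelled) and 43 (OE-labelled), were under the minimum. AARS2 had 79 knockout-labelled and 34 OE-labelled footprint counts (0.93, 0.34 to 1.56) with 108 knockout-labelled and 75 OE-labelled RNA counts (0.08), and EARS2, for glutamate, had 77 knockout-labelled and 39 OE-labelled ones (0.70, 0.13 to 1.30) with 216 knockout-labelled and 140 OE-labelled RNA counts (0.18).

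SARS2, for serine, had 59 footprint counts in the knockout-labelled library and 91 in the OE-labelled one (-0.90, -1.40 to -0.41). For SARS2 82.6% of coding 28-base words recur in another annotated gene, so this count too depends on how shared reads were assigned. The 3 mitochondrial enzymes with the highest footprint levels differed little: YARS2 (tyrosine) had 342 knockout-labelled and 248 OE-labelled footprint counts (0.19), NARS2 (asparagine) had 279 knockout-labelled and 220 OE-labelled ones (0.07), and IARS2 (isoleucine) had 558 knockout-labelled and 545 OE-labelled ones (-0.24). NARS2 had 377 RNA counts in the knockout-labelled library and 366 in the OE-labelled one, a ratio of -0.40 (-0.61 to -0.19). MARS2, for methionine, had 241 knockout-labelled and 150 OE-labelled footprint counts (0.41), and TARS2, for threonine, had 344 knockout-labelled and 217 OE-labelled ones (0.39). CARS2, for cysteine, had 100 knockout-labelled and 90 OE-labelled ones (-0.13). The mRNA ratios of these 3 were 0.18 for MARS2, 0.01 for TARS2 and -0.25 for CARS2, so that none was past 1.5-fold in either assay. WARS2 had 41 knockout-labelled and 28 OE-labelled RNA counts and 35 knockout-labelled and 13 OE-labelled footprint counts, too few for a ratio by the count minimum, and VARS2 had 102 knockout-labelled and 66 OE-labelled RNA counts (0.18) and 40 knockout-labelled and 45 OE-labelled footprint counts, too few as well.

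**Figure D3:**
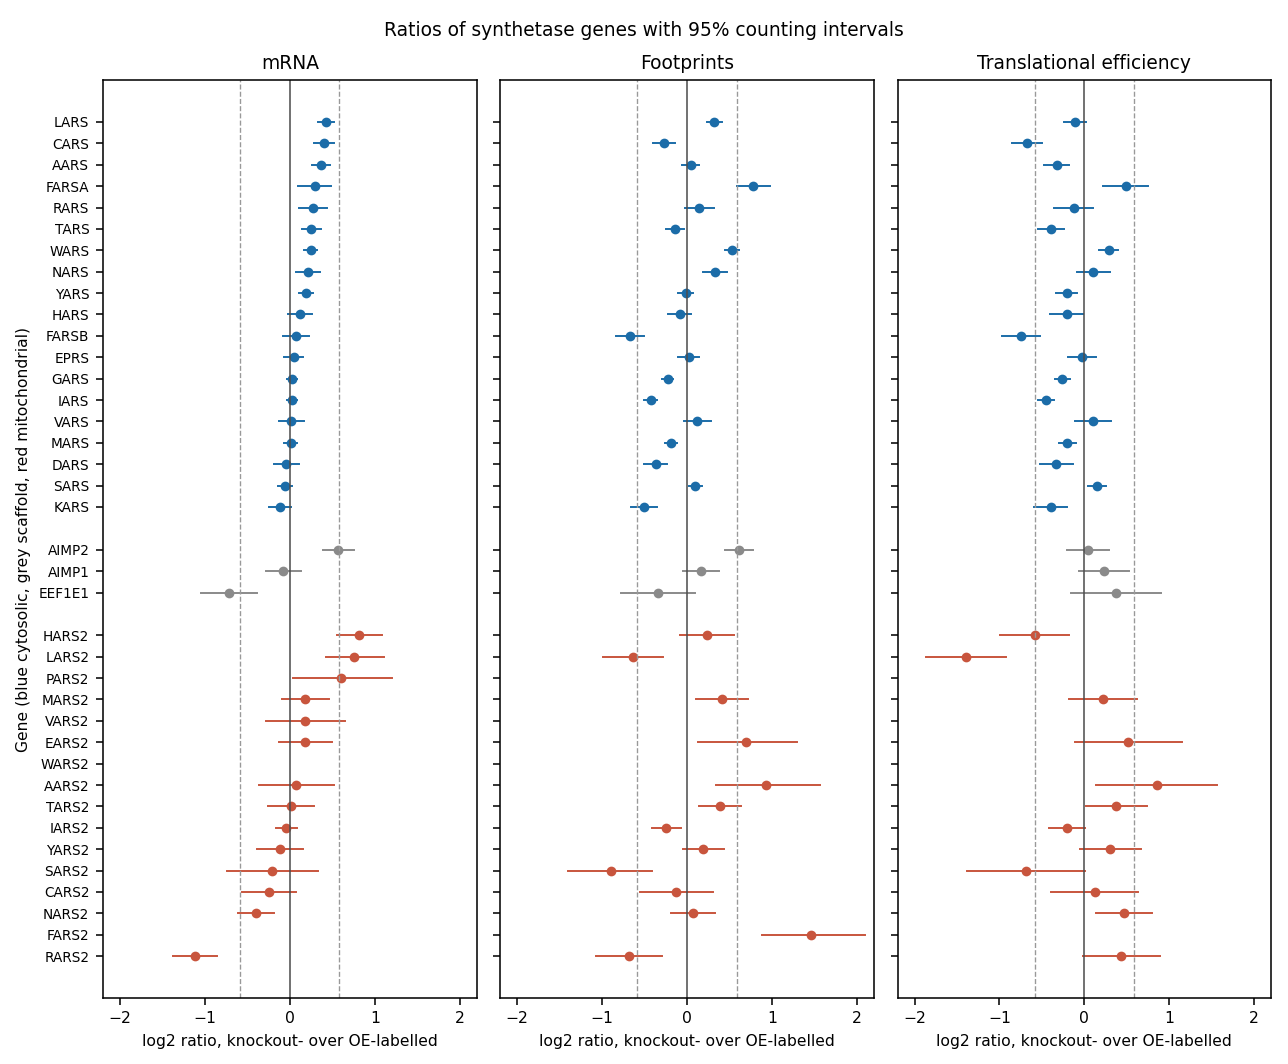
Log2 ratios, knockout-labelled over OE-labelled, of mRNA, footprints and translational efficiency for each measured member, with 95% counting intervals; dashed lines mark 1.5-fold. The cytosolic enzymes stay inside the lines for mRNA, and the mitochondrial enzymes spread further with wider intervals.

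Enzymes of the same amino acid in the cytosol and in mitochondria can be compared within a library, which needs no scaling. For 13 amino acids both genes were found, including VARS2 and WARS2 with their low counts. The mitochondrial to cytosolic ratio of RNA counts was higher in the knockout-labelled line for 4 pairs and lower for 9, and for footprints it was higher for 8 and lower for 5. The interval of the difference left out equality for 5 of 13 pairs in RNA and for 6 of 13 in footprints. By comparison, the counting interval of single genes left out 0 for 55.7% of all measured genes in mRNA and 57.3% in footprints. Shares over other pairs of genes were not computed. The arginine pair differed most in RNA: RARS2 over RARS was 0.25 in the knockout-labelled line and 0.66 in the OE-labelled line (0.38-fold, 0.31 to 0.47), and in footprints 0.15 in the knockout-labelled line and 0.26 in the OE-labelled line (0.56-fold, 0.42 to 0.75). For histidine, HARS2 over HARS was 0.39 in the knockout-labelled line and 0.24 in the OE-labelled line in RNA (1.62-fold, 1.32 to 1.99). For leucine, LARS2 over LARS was 0.05 in the knockout-labelled line and 0.10 in the OE-labelled line in footprints (0.52-fold, 0.40 to 0.66). AARS2 over AARS was 1.85-fold higher in footprints in the knockout-labelled line (1.23 to 2.78).

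Translational efficiency is the footprint ratio divided by the mRNA ratio, so it shares its counts with both and adds no new measurement. For the cytosolic enzymes 14 of 19 had an efficiency ratio below 0 and 5 above, with a median of -0.21 beside -0.00 for all measured genes. Only CARS and FARSB were past 1.5-fold, both lower, while 26.3% of 7260 measured genes were past it in either direction and 12.9% lower; among genes with at least 400 counts 11.3% were past it in either direction. The interval lay wholly below 0 for 11 cytosolic enzymes and wholly above for 3; it left out 0 for 45.7% of all measured genes, 1655 of them above and 1660 below. FARSB had an efficiency ratio of -0.75 (-0.97 to -0.52) and CARS one of -0.67 (-0.85 to -0.50). CARS had 935 footprints in the knockout-labelled library and 931 in the OE-labelled one, beside its higher RNA counts. FARSA (0.48, 0.22 to 0.75) and WARS (0.28, 0.17 to 0.40) had the highest of the cytosolic enzymes. An efficiency median below 0 was not particular to these enzymes. Among genes of uncharged tRNA sensing and ATF4 targets, 17 of 22 had an efficiency ratio below 0 and 5 above (median -0.17). Genes of tRNA export, processing and CCA addition went the other way, with 6 of 17 below 0 and 11 above (median 0.20).

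In 8 of the 19 cytosolic enzymes (42.1%) the mRNA ratio was above 0 and the footprint ratio below; among all genes measured in both assays this held for 18.1%. They were CARS, FARSB, GARS, HARS, IARS, MARS, TARS and YARS, and for CARS and TARS both intervals left out 0, while the sign of MARS in mRNA and of YARS in footprints changed between scalings. Of the 12 mitochondrial enzymes measured in both assays, 1 showed this pattern, LARS2. Its efficiency ratio, -1.39 (-1.86 to -0.92), was the lowest of any measured member. HARS2 (-0.59, -0.99 to -0.18) and SARS2 (-0.69, -1.38 to 0.01) were also past 1.5-fold lower and AARS2 (0.85, 0.13 to 1.57) past it higher, 4 of 12 against 30.2% of measured genes under 400 counts; the median of the 12 was 0.27. HARS2 was the member just inside the threshold and EARS2, at 0.52, just outside.

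**Figure D4:**
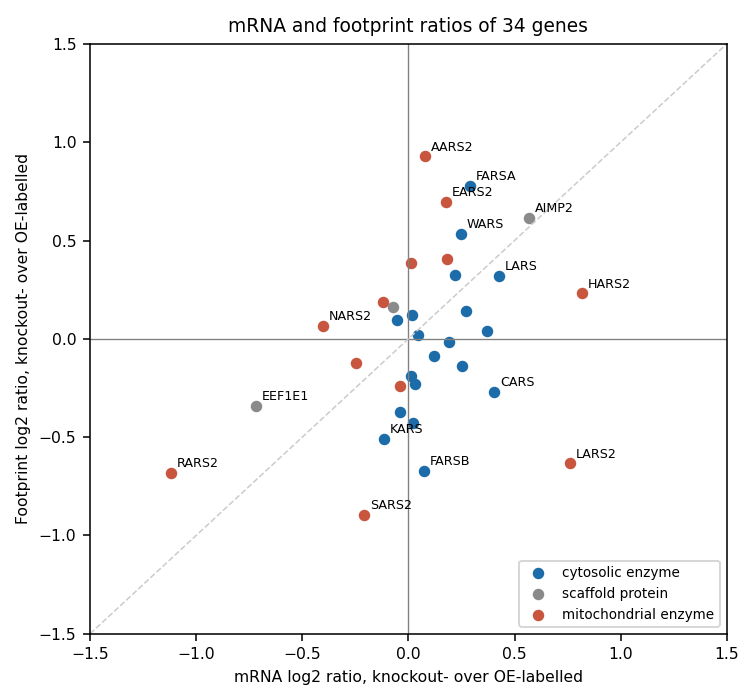
Footprint ratio against mRNA ratio, both as log2 of knockout-labelled over OE-labelled, for the 34 members measured in both assays; the dashed line marks equal ratios. FARSA and FARSB lie far apart on the vertical axis (0.78 and -0.67) and closer on the horizontal one (0.29 and 0.07), RARS2 lies at the lower left, and LARS2 has a positive mRNA ratio and a negative footprint ratio.

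Within each line, the cytosolic enzymes carried more footprints per RNA count than most genes. Their median log2 ratio of footprint CPM over RNA CPM was above that of all measured genes by 0.68 in the knockout-labelled line and 0.78 in the OE-labelled line, with 18 (knockout-labelled) and 19 (OE-labelled) of the 19 enzymes above it. For the mitochondrial enzymes the excess was 0.24 in both lines. Once footprints were taken per kb of coding sequence and RNA per kb of transcript, the excess was 0.00 in the knockout-labelled line and 0.09 in the OE-labelled line for the cytosolic enzymes, and -0.24 (knockout-labelled) and 0.02 (OE-labelled) for the mitochondrial ones. Over all measured genes the median log2 footprint to RNA ratio in the knockout-labelled line was 0.51, 0.27 and -0.15 in 3 equal groups of genes, in order of rising untranslated share of the transcript. In the OE-labelled line the same groups had 0.49, 0.26 and -0.17.

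The 10 measured members of the multisynthetase complex, scaffolds included, had medians of 0.02 for mRNA, -0.09 for footprints and -0.12 for efficiency. The 12 cytosolic enzymes outside the complex had 0.20, 0.01 and -0.21. The 12 described as ATF4-responsive had a median mRNA ratio of 0.20 and the 7 others 0.07, with efficiency medians of -0.20 and -0.21. The 7 cytosolic enzymes whose promoter held the ATF4-type letters had mRNA ratios from 0.01 to 0.40 (median 0.22), and the 8 without them from -0.11 to 0.29 (median 0.10). The ranges overlap over most of their length.

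Genes around the synthetases gave the following. Among 23 measured genes of uncharged tRNA sensing and ATF4 targets, 5 were past 1.5-fold higher and none lower for mRNA (median 0.31), against 10.5% of all measured genes in each direction. For footprints 4 were past it higher and none lower (median 0.29), against 15.0% higher and 14.0% lower. ATF4 itself had 3020 RNA counts in the knockout-labelled library and 2568 in the OE-labelled one (-0.21), with 2739 knockout-labelled and 1458 OE-labelled footprint counts (0.63, 0.54 to 0.73). DDIT3, which encodes the stress factor CHOP, had 963 knockout-labelled and 368 OE-labelled RNA counts (0.94) and 690 knockout-labelled and 194 OE-labelled footprint counts (1.55). SLC3A2, the heavy chain of amino acid transporters, had 3573 knockout-labelled and 1692 OE-labelled RNA counts (0.63), but a footprint ratio of 0.16. SESN2, a leucine-sensing stress protein, had 523 knockout-labelled and 229 OE-labelled RNA counts (0.74) and a footprint ratio of 0.69. These 4 were named because they passed 1.5-fold in at least 1 assay; 18 of the 23 stayed under it for mRNA and 19 for footprints. For mRNA 15 of the 23 were above 0 and 8 below, against 51.1% of all measured genes above 0. Their intervals lay wholly above 0 for 13 and wholly below for 7, where 55.7% of all measured genes had an interval that left out 0. SHMT2, of one-carbon metabolism, was the lowest at -0.42 for mRNA, with 2783 knockout-labelled and 2736 OE-labelled RNA counts. EIF2AK4, the gene of GCN2, was also below 0, with ratios of -0.25 for mRNA and -0.48 for footprints.

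Of 18 measured genes of tRNA export, processing and CCA addition, 2 were past 1.5-fold higher and 2 lower for mRNA, and 5 higher and 2 lower for footprints, where 21.0% of all measured genes were past it for mRNA and 29.0% for footprints, in either direction. XPOT, the exporter of tRNA from the nucleus, had 4291 RNA counts in the knockout-labelled library and 2893 in the OE-labelled one (0.12), but 456 knockout-labelled and 636 OE-labelled footprint counts (-0.76, -0.93 to -0.58). POP7 and RPP30, subunits of RNase P, had footprint ratios of 0.62 and 0.43 and mRNA ratios of 0.34 and 0.63. TRNT1, which adds the CCA end, had 97 knockout-labelled and 128 OE-labelled RNA counts (-0.84).

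Of the factors that deliver aminoacyl-tRNA to ribosomes, 10 of 11 were measured for footprints, and EEF1A2 sat at the 1.5-fold threshold, with 4612 counts in the knockout-labelled library and 2538 in the OE-labelled one (0.585); with DESeq2 size factors it fell under it (0.584). In mitochondria the exchange factor TSFM had 329 knockout-labelled and 159 OE-labelled RNA counts (0.60, and 0.58 with upper-quartile scaling), and the initiation factor MTIF3 had 51 knockout-labelled and 102 OE-labelled ones (-1.44). EEF1A1, EEF1D and EEF1G, named after their values were seen, were the 3 factors past 1.5-fold in efficiency, at 0.81, 0.86 and 0.69, 3 of 10 where 13.4% of all measured genes were past it higher. EEF1A1 had 60386 RNA counts in the knockout-labelled library and 63097 in the OE-labelled one, beside 33933 knockout-labelled and 22653 OE-labelled footprint counts. Of the 10 factors 7 had an efficiency ratio above 0 (median 0.19), against 49.6% of all measured genes.

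Among other synthetase-related enzymes, SEPSECS, which makes selenocysteine on its tRNA, was past 1.5-fold higher in both assays: 231 RNA counts in the knockout-labelled library against 48 in the OE-labelled one (1.81, 1.37 to 2.30), and 100 knockout-labelled against 25 OE-labelled footprint counts (1.70, 1.08 to 2.42). DTD1, which removes D-amino acids from tRNA, had 231 knockout-labelled and 302 OE-labelled footprint counts (-0.66). MTFMT, which formylates the mitochondrial initiator tRNA, had 43 knockout-labelled and 67 OE-labelled ones (-0.91), and AARSD1, an alanyl-tRNA editing protein, had 159 knockout-labelled and 73 OE-labelled RNA counts (0.67). Of 13 mitochondrial tRNA modification genes none was past 1.5-fold for mRNA, against 21.0% of all measured genes; NSUN4 (0.70) and YRDC (0.65) passed it with total counts as scaling. For footprints 4 were past it, against 29.0%: HSD17B10 (0.65) and NSUN4 (0.75) higher, and MTO1 (-0.69) and KIAA0391 (-0.69) lower; HSD17B10 and KIAA0391 are subunits of mitochondrial RNase P.

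**Figure D5:**
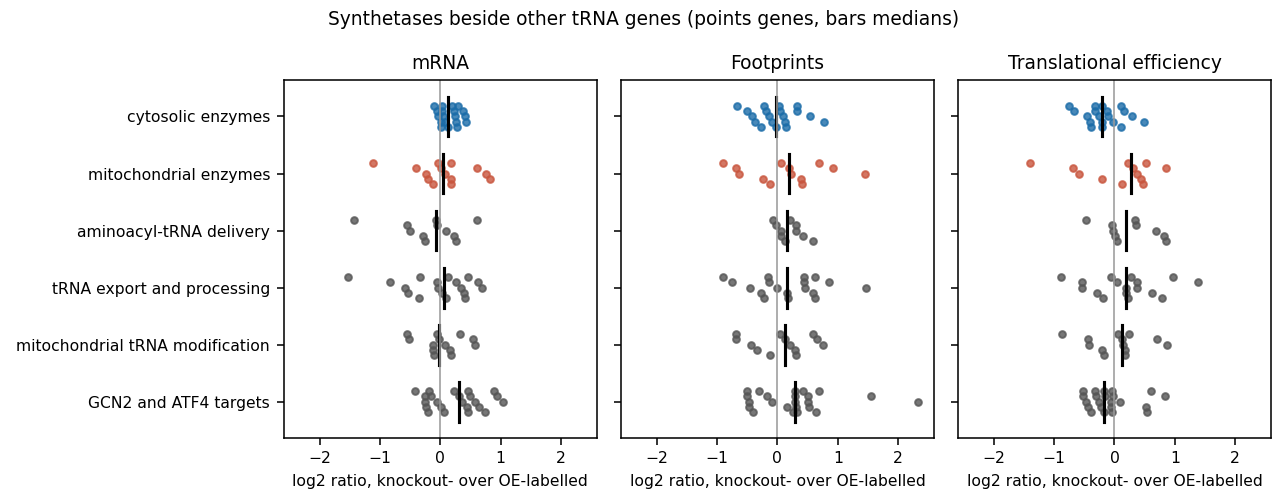
Log2 mRNA, footprint and efficiency ratios, knockout-labelled over OE-labelled, of the cytosolic and mitochondrial enzymes and of 4 gene lists around them; each point is 1 measured gene and each bar a list's median. The ATF4 list has the highest mRNA median (0.31), and the cytosolic enzymes lie in a narrow band around 0.12.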

How the data were processed

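Ribosome footprints (18 to 34 nt) and RNA fragments (18 to 50 nt) were sequenced, per the labels' protocols, from linkers with random identifiers of 4 and 5 nt and after 15 PCR cycles. The authors deposited raw counts, whole numbers that are not normalized, for 1 listed transcript of each gene. The submitters' processing notes name cutadapt 1.10, Bowtie 1.1.2, HISAT2 2.1.0 and GRCh38, with no role. The counter, the counted part of each transcript and any duplicate collapsing were not given in the sources used here. Intervals and floors therefore cover counting error only; 3 counts correspond to 0.42 to 1.11 CPM.

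Samples were grouped by genotype label and assay. TMM factors (edgeR 4.0.16, R 4.3.3) scaled the libraries of each assay, also for CPM, and ratios were taken with 0.5 added. Single-assay intervals are exact conditional binomial ones, and efficiency intervals are Wald intervals from the 4 counts. Coding and transcript lengths came from GENCODE 29, which matched 19176 of 19192 listed transcripts and 37 of 38 members. Scripts were tested on simulated data. Members past 1.5-fold whose interval left out 0, the ends of each class, the highest and lowest levels and the amino acid pairs were named, with up to 4 genes of each other list by mean RNA count among those past 1.5-fold in mRNA or footprints. The members and lists were chosen with earlier results of these data known. Alternatives were other scalings (DESeq2 1.42.0 size factors, total counts, upper quartile), count minimums, 5 added counts, a 2-fold threshold and members left out. The split of all genes at 400 counts, the values per kb and leaving out EEF1E1 and SARS2 were chosen after seeing the data.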

Additional observations from a re-analysis of the deposited data

How the results depend on the processing

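The counts past 1.5-fold, the cytosolic and mitochondrial medians, the single members and the within-line excess were recomputed under the alternatives, none of which reversed a called value; 113 values of the counts, medians and excess stayed and 13 moved. The amino acid pairs, other groupings and promoter counts were not recomputed. The members past 1.5-fold moved for mRNA from 5 to 2 with a mean count of at least 200 and to 1 with a 2-fold threshold. For footprints they moved from 9 to 3 and to 1. For efficiency they moved from 6 to 2 and to 1, and to 10 with a minimum of 10 or with no minimum. Within each line, the cytosolic excess of footprints over RNA changed from 0.68 to 0.0040 (knockout-labelled) and from 0.78 to 0.0948 (OE-labelled) per length, and to 0.90 and 0.99 with a minimum of 10; the mitochondrial excess in the knockout-labelled line changed from 0.24 to -0.24 per length. Scaling by total counts moved the all-gene mRNA median from 0.01 to 0.13 and that of efficiency to -0.10; the cytosolic mRNA median less that of all genes stayed 0.11. Of single members, AIMP2 mRNA passed 1.5-fold with total counts (0.69), and PARS2 mRNA (0.52) and HARS2 efficiency (-0.54) fell under it with other settings. Ratios near 0 changed sign between scalings for 8 members in mRNA (DARS, KARS, MARS, SARS, VARS, AIMP1, IARS2 and TARS2), for YARS in footprints and for EPRS and AIMP2 in efficiency. The cause of these changes was not tested. No paired analysis was possible because each line and assay has 1 library and the labels give no replicate numbers. Depth limits the mitochondrial enzymes most: 3 of 16 had too few footprints for a ratio.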

Other observations

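The cytosolic enzymes fall into 2 structural classes by the fold of their catalytic domain. The fused enzyme EPRS was placed in neither group. The 8 measured class I enzymes had a median mRNA ratio, knockout-labelled over OE-labelled, of 0.22, with all 8 above 0 under the main scaling. The 10 measured class II enzymes had 0.10, with 7 above 0, while 51.1% of all measured genes were above 0. The signs of MARS and VARS in class I and of DARS, KARS and SARS in class II changed between scalings. For footprints the medians were 0.05 and -0.11, and for efficiency -0.16 and -0.29. FARSA and FARSB, both class II, had the highest and the lowest class II footprint ratio. GARS and KARS, which serve both compartments, had footprint ratios of -0.23 and -0.51 and efficiency ratios of -0.26 and -0.40, both below 0 with intervals that left it out.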
